A study of Mus musculus with 2 samples.

Results

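In adult mouse heart, 127 genes of the antisense and bidirectional promoter classes were measured at a mean of 1 TPM or more, of 3133 genes of these classes and 55536 annotated genes in all. TPM is the relative abundance of a gene's transcripts in its library, corrected for their length. A gene was taken when every one of its transcripts was typed antisense or bidirectional promoter lncRNA in the annotation carried by the second transcript table and when its TPM, averaged over both animals, reached 1. Tsix, Airn, Kcnq1ot1, Gas5 and the Snhg genes were left out. The samples were whole heart tissue of 2 female B6CASTF1/J mice, the F1 hybrid of C57BL/6 and CAST, aged 2 months, with 1 library per animal in 1 group (n = 2). Each library was made from 300 ng of total RNA after reduction of ribosomal RNA, with ERCC spike-ins added, which are synthetic transcripts of known amount. With no second condition, the data describe which of these RNAs heart tissue contains, how their levels stand to those of the genes on the opposite strand, and how alike the 2 animals were. Whole tissue mixes cardiomyocytes with other cell types, and levels are averages over all of them. Members were selected on the TPM of the gene tables, so their levels are given as a description, with no test.

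An antisense RNA is transcribed from the strand opposite to another gene, usually a protein-coding one, and overlaps it in full or in part. A bidirectional promoter RNA starts next to the start of a protein-coding gene and runs away from it on the opposite strand, from the same open stretch of chromatin. Most products of such divergent transcription are short-lived and are removed in the nucleus by the RNA exosome, while a minority are spliced and accumulate. In heart, the best-known antisense RNA is Mhrt, from the locus of the cardiac myosin heavy chains, which has been studied in mouse as an RNA made by cardiomyocytes.

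The start sites of 7 members are printed to show the 2 arrangements that the results turn on. Windows were those of RefSeq on GRCm38.p6, from 250 bases before to 50 after a gene's start, and were present for 74 of the 127 members. The first 3 are the members with the highest levels that had a window. Gm15543 lies at chr6:145182025-145182324 on the plus strand, within the gene Casc1. C130080G10Rik lies at chr2:114054146-114054445 on the plus strand, next to the cardiac actin gene Actc1. Mhrt lies at chr14:54968537-54968836 on the plus strand. The RefSeq start lay 61 bases downstream of the GENCODE M21 start for C130080G10Rik and 109 bases downstream for Mhrt. The other 4 are the highest head-to-head members whose window also held the start of the protein-coding partner and whose starts in both annotations lay within 10 bases of each other. 0610009L18Rik lies at chr11:120348428-120348727 on the plus strand, and its partner Actg1, a cytoplasmic actin, starts at base 115 of the window on the other strand. 2610306M01Rik lies at chr6:86849391-86849690 on the minus strand, and Aak1, a kinase of clathrin adaptors, starts at base 174. 2810001G20Rik lies at chr11:64079234-64079533 on the plus strand, and Cox10, a farnesyltransferase of haem A synthesis, starts at base 235. 4632427E13Rik lies at chr7:92741410-92741709 on the minus strand, and Rab30, a small GTPase, starts at base 107. Each is written 5′ to 3′ along the strand of the antisense RNA, and capitals mark matches, on either strand, of the motifs described with the promoter results.
Gm15543: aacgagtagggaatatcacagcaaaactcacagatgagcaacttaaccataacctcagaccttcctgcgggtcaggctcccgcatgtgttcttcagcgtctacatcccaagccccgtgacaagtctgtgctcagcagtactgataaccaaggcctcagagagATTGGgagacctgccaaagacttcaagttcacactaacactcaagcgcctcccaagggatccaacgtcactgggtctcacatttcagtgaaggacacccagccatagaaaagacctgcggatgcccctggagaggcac
C130080G10Rik: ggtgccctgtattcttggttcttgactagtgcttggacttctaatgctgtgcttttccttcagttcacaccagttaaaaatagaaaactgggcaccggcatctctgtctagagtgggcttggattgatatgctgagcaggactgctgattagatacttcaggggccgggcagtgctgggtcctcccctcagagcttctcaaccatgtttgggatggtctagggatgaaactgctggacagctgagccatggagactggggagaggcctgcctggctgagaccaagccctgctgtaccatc
Mhrt: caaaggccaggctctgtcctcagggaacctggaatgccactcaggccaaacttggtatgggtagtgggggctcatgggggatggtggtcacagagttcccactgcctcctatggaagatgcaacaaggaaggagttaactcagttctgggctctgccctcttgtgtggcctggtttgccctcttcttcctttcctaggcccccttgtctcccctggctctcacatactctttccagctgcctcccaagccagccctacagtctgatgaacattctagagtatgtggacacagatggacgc
0610009L18Rik: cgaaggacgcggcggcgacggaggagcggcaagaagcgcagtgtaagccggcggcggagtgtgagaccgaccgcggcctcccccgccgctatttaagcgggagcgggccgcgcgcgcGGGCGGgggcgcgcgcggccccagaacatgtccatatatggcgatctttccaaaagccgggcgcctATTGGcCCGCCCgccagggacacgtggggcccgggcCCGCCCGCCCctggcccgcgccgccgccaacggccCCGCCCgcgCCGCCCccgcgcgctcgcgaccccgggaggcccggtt
2610306M01Rik: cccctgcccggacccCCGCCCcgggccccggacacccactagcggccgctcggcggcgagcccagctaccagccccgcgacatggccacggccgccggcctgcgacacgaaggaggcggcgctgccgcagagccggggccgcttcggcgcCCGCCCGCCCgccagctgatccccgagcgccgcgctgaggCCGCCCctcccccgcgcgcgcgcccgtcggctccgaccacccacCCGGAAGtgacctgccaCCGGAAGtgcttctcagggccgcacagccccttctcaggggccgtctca
2810001G20Rik: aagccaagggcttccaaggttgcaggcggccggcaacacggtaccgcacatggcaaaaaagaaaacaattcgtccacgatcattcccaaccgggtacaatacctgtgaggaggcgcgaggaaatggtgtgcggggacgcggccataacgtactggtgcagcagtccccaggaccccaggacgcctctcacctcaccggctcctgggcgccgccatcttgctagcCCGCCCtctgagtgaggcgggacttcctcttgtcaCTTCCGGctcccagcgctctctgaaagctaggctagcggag
4632427E13Rik: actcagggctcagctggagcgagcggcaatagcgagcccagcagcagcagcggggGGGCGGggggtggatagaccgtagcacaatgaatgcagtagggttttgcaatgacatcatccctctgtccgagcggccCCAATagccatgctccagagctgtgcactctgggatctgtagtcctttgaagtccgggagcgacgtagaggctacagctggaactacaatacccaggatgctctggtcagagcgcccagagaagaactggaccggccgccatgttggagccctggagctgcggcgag

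The data comprise 41862417 gene reads in animal 1 and 41790009 in animal 2. All 6 cardiomyocyte markers were present, with sums of 21120 TPM in animal 1 and 24145 TPM in animal 2. Sums were 133 and 179 TPM for 5 endothelial markers, 222 and 292 TPM for 5 fibroblast markers, 163 and 230 TPM for 4 mural markers and 50.2 and 67.1 TPM for 4 macrophage markers, in animal 1 and animal 2 in turn. TPM was lower in animal 1 for most genes, with a median log2 ratio of -0.22 over 16109 genes with at least 20 reads, so levels of the animals are compared below on scaled reads.

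The 127 members took 29319 reads in animal 1 and 28323 in animal 2, which is 0.0700% and 0.0678% of gene reads. Their TPM summed to 756 in animal 1 and 834 in animal 2, a mean of 795 ± 54.9 (SD, n = 2). The median member stood at 1.995 TPM, with quartiles of 1.33 and 4.04, against a median of 2.42 TPM over 159 lincRNA genes and 8.64 TPM over 11251 protein-coding genes that reached 1 TPM. Only 13 members reached 10 TPM, 24 reached 5 TPM and 64 were under 2 TPM. The 2 highest members held 33.1% of the summed level and the 4 highest held 46.5%. Of the genes typed antisense, 103 of 2943 were members (3.50%), and of those typed bidirectional promoter lncRNA, 24 of 189 (12.7%). Together 4.05% of the classes reached 1 TPM, against 2.72% of 5854 lincRNA genes and 51.1% of 22028 protein-coding genes. The other 3006 genes of the classes fell below, and 1899 of them had no read in either animal, which at 3 reads allows up to 0.0717 CPM (reads in 1000000 gene reads) in animal 1 and 0.0718 in animal 2. A further 696 had reads and less than 0.1 TPM, and 411 lay between 0.1 and 1 TPM. In each animal by itself, 113 members reached 1 TPM, while 10 were below it in animal 1 and 4 in animal 2. Just inside the threshold stood Gm15879 at 1.03 TPM, D130020L05Rik at 1.03 TPM and Gm4285 at 1.01 TPM, and just outside it Gm45051 at 0.98 TPM, Gm16576 at 0.97 TPM and 4732440D04Rik at 0.96 TPM. No member lay on the X chromosome, which carries 44 genes of the classes and 3.00% of the protein-coding genes at 1 TPM or more. At the share of 4.05% over the classes, few of these 44 genes would be members.

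**Figure D1:**
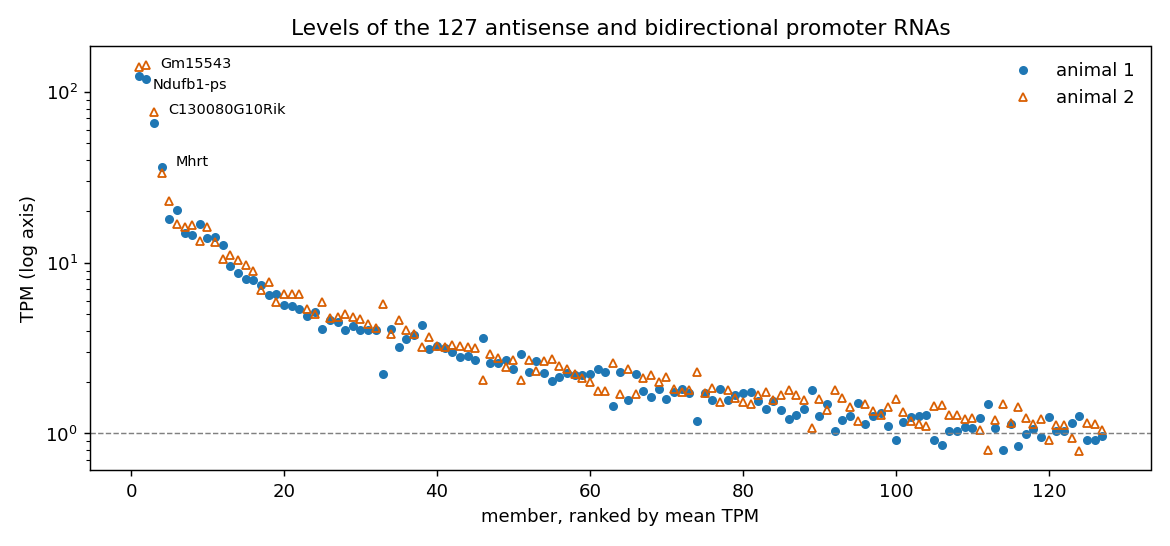
TPM (log axis) of the 127 members, ranked by their mean, in animal 1 (filled circles) and animal 2 (open triangles); the dashed line is 1 TPM. 4 members stand above 30 TPM in both animals, and 64 of the 127 have a mean under 2 TPM.

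The highest member was Ndufb1-ps (ENSMUSG00000113902.1; mm10 chr12:101968090-101977068, minus strand), named as a pseudogene of a subunit of respiratory complex I. It had 124 TPM in animal 1 and 140 TPM in animal 2 from 2045 and 2100 reads. Of its 1153 exon bases 147 lay opposite exons of Cpsf2, a subunit of the cleavage and polyadenylation complex, which had 4.34 TPM in animal 1 and 5.41 TPM in animal 2. Its start lay inside Cpsf2, farther than the 1000 bases that define a head-to-head pair here. Gm15543 (ENSMUSG00000086863.1; chr6:145182275-145187630, plus strand) had 118 and 143 TPM from 1151 and 1254 reads. It lies in an intron of Casc1, at 0.31 TPM in animal 1 and 0.43 TPM in animal 2. It has 1 annotated transcript of 2 exons and 361 bases. Both RNAs stood far above the gene they overlap in each animal, and both differed more than 2-fold between the quantifications, as described with the second quantification.

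C130080G10Rik (ENSMUSG00000092397.7; chr2:114054335-114064868, plus strand) had 65.9 TPM in animal 1 and 76.3 TPM in animal 2 from 3363 and 3386 reads, the most reads of any member. It starts 787 bases from the start of Actc1, which encodes cardiac alpha-actin of the thin filament and had 3940 TPM in animal 1 and 4952 TPM in animal 2. The RNA thus stood at 71.1 TPM on average and its partner at 4446 TPM, a log2 difference of -5.96. Its most abundant of 5 annotated transcripts, with 3 exons, took 51.1% of the gene in animal 1 and 49.3% in animal 2.

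Members lay opposite the genes of other sarcomere and calcium-handling proteins as well. Mhrt (ENSMUSG00000097652.2; chr14:54968678-54974349, plus strand) had 36.6 TPM in animal 1 and 33.7 TPM in animal 2 from 866 and 739 reads. It starts 1751 bases from the start of Myh6, the fast alpha myosin heavy chain, and runs away from it into Myh7, the slow beta chain. Of its 1214 exon bases 484 (39.9%) lay opposite Myh7 exons. Gm31251 (ENSMUSG00000115610.1; chr14:54979393-54991601, plus strand), farther along the same locus, had 16.8 TPM in animal 1 and 13.4 TPM in animal 2, while 41.9% of its exon bases lay opposite Myh7 exons. Myh7 had 762 TPM in animal 1 and 851 TPM in animal 2, so both antisense RNAs were the lower of each pair, with log2 differences of -4.52 for Mhrt and -5.73 for Gm31251. D830005E20Rik (ENSMUSG00000112707.1; chr10:33222345-33256418, minus strand) had 15.0 and 16.2 TPM and lies in introns of Trdn, which encodes triadin of the calcium release complex and had 108 TPM in animal 1 and 122 TPM in animal 2. With C130080G10Rik these 4 RNAs overlapped no protein-coding gene on their own strand in the M21 annotation, and each stood below its partner in both animals. On the strand of Gm31251, however, Gm17428 ends within 5000 bases upstream. Such an upstream gene was found for 11 members in all, including Atcayos with Dapk3, and its part in their levels was not tested.

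Other members among the 20 highest lay opposite genes with general or non-cardiac roles. Tug1 (ENSMUSG00000056579.18), a widely expressed long RNA, had 14.6 TPM in animal 1 and 16.6 TPM in animal 2, above its head-to-head partner Morc2a, a chromatin ATPase, at 7.04 and 7.09 TPM. Atcayos had 20.5 TPM in animal 1 and 16.9 TPM in animal 2, opposite Atcay, which encodes the brain protein caytaxin and was listed at 0.01 and 0.04 TPM. Gm15417 had 18.0 and 22.9 TPM, opposite Zbtb7b, a transcription factor known from T-cell development, at 6.64 and 9.02 TPM. Gm47547 had 14.01 and 16.1 TPM within Dydc2, which was listed at 0 in both animals. Sp3os had 7.37 and 6.90 TPM, opposite the transcription factor gene Sp3 at 11.1 and 13.0 TPM. Mir133a-1hg, the host transcript of the muscle microRNAs miR-133a and miR-1a, had 6.47 TPM in animal 1 and 7.70 TPM in animal 2 within Mib1, a ubiquitin ligase of Notch ligands, at 13.6 and 14.6 TPM. In the second quantification Mir133a-1hg had 2.73 and 2.43 TPM, a log2 difference of 1.42, first over second. Gm13375 had 14.1 and 13.2 TPM, head to head with Arhgap21, which encodes a GTPase-activating protein, at 26.7 and 28.7 TPM. B230354K17Rik had 8.03 and 9.72 TPM, head to head with the splicing factor gene Cdc5l at 13.8 and 17.3 TPM. Gm10435 had 12.8 TPM in animal 1 and 10.6 TPM in animal 2. The other 5 of the 20, Gm11716, Gm45670, 2310040G07Rik, Gm26782 and Gm48882, had means between 6.11 and 10.3 TPM. The SD over the 2 animals of these levels also holds the overall shift of TPM between the libraries.

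Of the 127 members 65 (51.2%) started within 1000 bases of an opposite-strand protein-coding gene that ran away from them. The share was 24.3% (729) of the 3006 genes of the classes below 1 TPM and 16.4% (26) of the 159 lincRNA genes at 1 TPM or more. The annotated types that the rule used are themselves set by position, and lincRNA genes are intergenic by definition, so these shares are a description. Head-to-head starts were found for 21 of the 24 members typed bidirectional promoter lncRNA and also for 44 of the 103 typed antisense. A further 36 members overlapped exons of their partner, 24 lay over its introns alone, and 2, Gm43079 and Gm11730, had no protein-coding gene opposite or within 1000 bases. Of the 65 head-to-head pairs 35 overlapped at their 5′ ends, with a median overlap of 453 bases, and 30 were separated by a gap, with a median of 136 bases. In 30 pairs the starts lay within 200 bases of each other. Median levels were 1.87 TPM for head-to-head members, 2.16 TPM for members over exons and 2.79 TPM for members over introns.

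**Figure D2:**
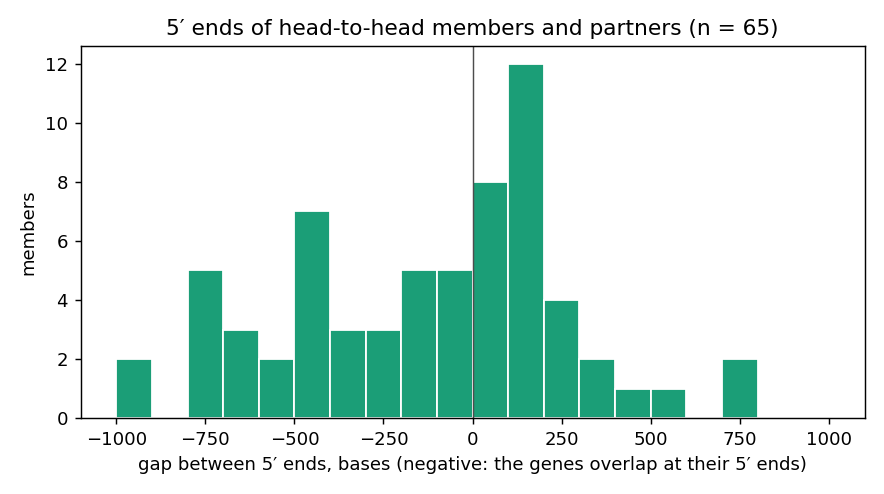
Number of head-to-head members (vertical axis) by the gap in bases between their start and that of the partner, in steps of 100 bases; negative values mean that the genes overlap at their 5′ ends. The 30 pairs with a gap have a median of 136 bases, and the 35 overlapping pairs spread over all distances up to 1000 bases.

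Members were usually far below the gene across from them. Over 125 members with a partner, of 124 different partners, the median log2 difference, taken after adding 0.1 TPM to both values, was -2.61, with quartiles of -3.62 and -0.98. It was -2.69 for head-to-head members, -2.42 for members over exons and -1.47 for members over introns. The partners of members had a median of 12.1 TPM, and 112 of 125 (89.6%) reached 1 TPM. Partners of genes of the classes below 1 TPM had a median of 3.36 TPM over 2857 genes, and 64.6% reached 1 TPM. In both animals 103 members were below the partner and 20 above it. At 11 members the partner reached 100 TPM. The farthest below was Gm4285, at 0.97 TPM in animal 1 and 1.05 TPM in animal 2, which starts 129 bases from Tpt1, the abundant translationally controlled tumour protein gene, at 1131 and 1301 TPM, a log2 difference of -10.10. 2900060B14Rik had 0.80 and 1.48 TPM in an intron of Clasp1, a microtubule plus-end protein gene, at 149 and 179 TPM, a difference of -7.05.

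By mean level 21 members stood above their partner. The partner was below 1 TPM for 13 of them and at 1 TPM or more for the other 8. Every member has a mean of 1 TPM or more by the rule, so those 13 stand above their partner by selection. All 21 together were 5 head-to-head members, 12 over exons and 4 over introns. The largest log2 differences were 8.12 for Gm15543, 7.25 for Gm47547, 7.23 for Atcayos, 4.73 for Ndufb1-ps and 4.597 for Gm45012. With partners near 0 these values rest on the added 0.1 TPM. Atcayos also lies opposite Nmrk2, a nicotinamide riboside kinase gene of muscle, at 3.55 TPM on average, and against it the log2 difference was 2.36. Gm45012 had 2.27 TPM in animal 1 and 2.37 TPM in animal 2, opposite Mogat2, a gene of intestinal fat absorption that was listed at 0. Some members also lie near a second protein-coding gene that is higher than the chosen partner: Brip1os, at 3.14 and 3.67 TPM, was above the DNA repair helicase gene Brip1 at 0.08 and 0.28 TPM, and below Med13, a Mediator subunit gene at 13.0 TPM on average. Taking the highest opposite-strand gene in every case left 19 members above.

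**Figure D3:**
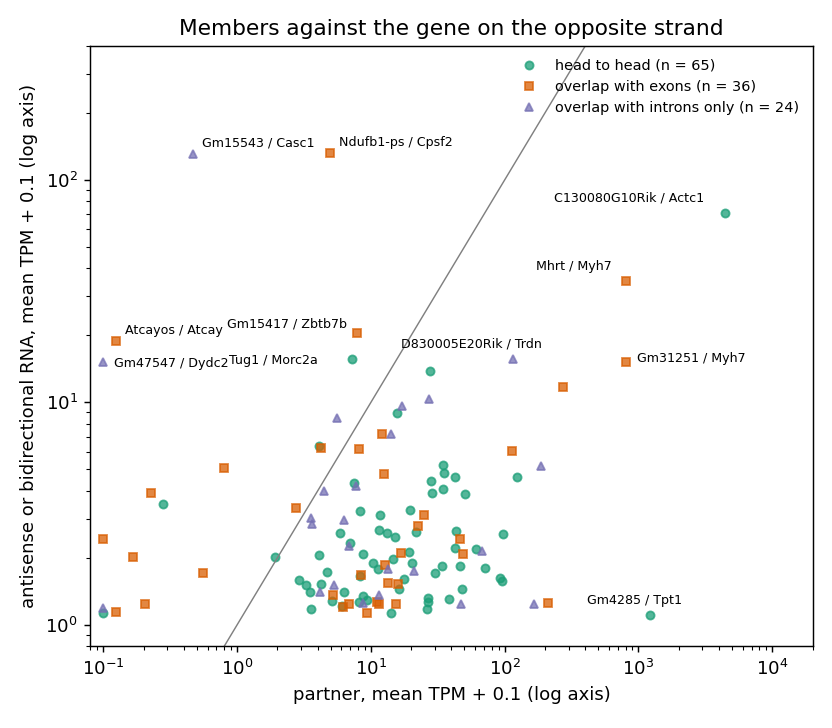
Mean TPM of each member (vertical) against that of its opposite-strand partner (horizontal), both with 0.1 added and on log axes; marks show the 65 head-to-head pairs, 36 overlaps with exons and 24 overlaps with introns alone, and the line marks equal levels. Of 125 members 21 lie above the line. For 13 of them the partner is below 1 TPM, so the rule of 1 TPM for members places them there.

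Across members, the levels of the RNA and of its partner were at most weakly related. Spearman's rank correlation was 0.11 over all 125 pairs, 0.22 over the 65 head-to-head pairs, 0.14 over the 36 with exon overlap and -0.05 over the 24 over introns (Pearson's r of log2 values 0.11, 0.33, 0.21 and -0.22). These describe points across genes that come from the same libraries, and the lower limit of 1 TPM on the members narrows their range.

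Overlap on opposite strands matters for counting, since reads of a gene and its antisense partner can be told apart only by strand. The exons of 68 members overlapped exons of the partner, by a median of 231 bases or 15.1% of the exon bases. The deposited gene tables give a spread of read assignment, which is 0 where no read was divided among genes. It was 0 in both animals for 66 of these 68 members and for 120 of all 127 (94.5%), against 81.9% of protein-coding genes at 1 TPM or more. Gm11175, all of whose 877 exon bases lie opposite exons of Jund, an AP-1 transcription factor gene, had 29 reads in animal 1 and 21 in animal 2 with a spread of 0. Jund itself had 2398 and 2915 reads. A630072M18Rik, with 5142 of its 5410 exon bases opposite Rsbn1l, had 217 and 254 reads with a spread of 0. The only member whose spread passed 10% of its reads was Gm43079, with 34.3% in animal 1 and 15.4% in animal 2, and its values are uncertain. It overlaps Acad9, a gene of mitochondrial fat oxidation, on its own strand. A spread of 0 cannot show whether a partner contributed, since a read of the partner placed wholly on the member adds no spread. Whether the authors' counting used strand is not stated, so a partner's share in an antisense level was not tested.

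The members were mostly short spliced RNAs. The most abundant annotated transcript had 1 exon in 20 members, 2 exons in 59 and 3 or more in 48, with 7 at most. Transcripts of 2 exons made up 46.5% of members, against 34.0% of the 159 lincRNA genes and 5.66% of protein-coding genes at 1 TPM or more, and transcripts of 1 exon 15.7%, 20.8% and 2.58%. The median length was 901 bases for members, 1031 for lincRNA genes and 2619 for protein-coding genes. A polyadenylation signal, AATAAA or ATTAAA, stood within the last 50 bases of the transcript in 75 members (59.1%), in 56.0% of lincRNA genes and in 76.1% of protein-coding genes. More than 1 transcript was annotated for 72 members, and 58 of these had the same most abundant transcript in both animals. For 17 of the 72 it took over 80% of the gene in both. Annotated small RNA genes lay inside 5 members: Mir133a-1 and Mir1a-2 in Mir133a-1hg, Snord60 in Rab26os, and genes named only by number in 2310014F06Rik, Gm16008 and 2900060B14Rik.

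The promoter windows divided by arrangement. Each was the nearest RefSeq window of the same symbol, with no limit on its distance from the M21 start that sets the arrangement. The RefSeq start was offset by 16162 bases for Hectd2os and 8234 for Gm12224, both overlapping members, and by -5110 for Gm13594, which is head to head. The M21 start also lay outside the windows of many other members, in both arrangements. Among them were the head-to-head members Tug1, offset by 859 bases, and Gm13375, by -180. Overlapping members among them were Gm31251, offset by -3372 bases, and Gm11716, by -2126. Such windows do not hold the start that sets the class. The shares below include them, and the contrast between arrangements was not tested without them. Of 37 head-to-head members with a window 25 (67.6%) were CpG-rich, here a GC content of 55% or more with a ratio of observed to expected CpG of 0.65 or more, against 9 of 37 members (24.3%) that overlap a partner and 28.1% of all 32851 windows. Partners of head-to-head members were CpG-rich in 40 of 51 windows (78.4%). Median GC content was 66.3% in head-to-head members, 55% in overlapping members, 66.0% in partners and 52.7% in all windows. Head-to-head members and their partners often share bases of 1 window, so the similarity of these sets is built in where the starts are close. The letters CCGGAAG, the core bound by ETS factors, occurred on either strand in 27.0% of head-to-head members, 5.41% of overlapping members and 8.86% of all windows. The GC box GGGCGG occurred in 70.3%, 27.0% and 35.7% of these sets in turn, and the CCAAT box (CCAAT) in 45.9%, 48.6% and 37.4%. The TATA box (TATAAA) occurred in 5.41%, 8.11% and 13.6% and the cyclic AMP response element (TGACGTCA) in 5.41%, 0% and 1.79%. Matches were searched on both strands and may overlap.

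In the sequences printed above, the window between 0610009L18Rik and Actg1 held 6 matches of the GC box, of which those at bases 220 to 225 and 224 to 229 overlap, and 1 CCAAT box. The window of 2610306M01Rik and Aak1 held 4 GC boxes and 2 ETS cores, and that of 2810001G20Rik and Cox10 held 1 of each. The window of 4632427E13Rik and Rab30 held 1 GC box and 1 CCAAT box. Gm15543 had 1 CCAAT box, and none of the 5 motifs occurred in the windows of C130080G10Rik and Mhrt, whose ratios of observed to expected CpG were 0.097 and 0.044. A match is a description of letters and shows no binding.

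The 2 animals were compared by the ratio of their reads, animal 1 over animal 2, scaled by the trimmed mean of M values (TMM). All 127 members had the 20 reads required, with a median of 148 reads summed over both animals. With 1 library per animal no difference has a replicate check, and the 95% intervals, exact binomial, cover counting error only. A ratio of at least 2 in either direction was found in 3 members (2.36%), against 2.73% of 16133 genes with at least 20 reads and 1.14% of the 12295 of these at 1 TPM or more. Higher in animal 1 were 2 members, where 1.77% of all genes passed and 0.732% of those at 1 TPM or more. Gm16008, opposite Tnfrsf18, a costimulatory receptor gene of T cells, had 31.6 reads in animal 1 against 15 in animal 2, a ratio of 2.25 (1.18 to 4.47). Gm28609, within the lipid kinase gene Pik3c2b, had 49 and 25 reads, a ratio of 2.07 (1.25 to 3.49). Higher in animal 2 was 1 member, where 0.967% of all genes and 0.407% of those at 1 TPM or more passed: Gm43079, uncertain for its read assignment, had 38.2 reads in animal 1 against 87.7 in animal 2, a ratio of 0.455 (0.303 to 0.673). All 3 had few reads, and the share of members past 2-fold was close to that of all genes.

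Smaller differences leaned to animal 1. The ratio was above 1 in 93 of 127 members (73.2%), against 50.7% of all genes, 67.7% of 155 lincRNA genes and 47.9% of protein-coding genes at 1 TPM or more. The median log2 ratio was 0.11 for members, 0.13 for lincRNA genes and 0.00 for all genes. It was 0.12 for head-to-head members and 0.11 for overlapping ones. Scaling by total reads moved the median of all genes to -0.08 and that of the members to 0.03, and 68 of 127 members (53.5%) were then above 1, against 30.6% of all genes. On the deposited TPM 37 of 127 members (29.1%) were higher in animal 1, against 18.0% of all genes, with medians of -0.16 and -0.22. The direction for members as such thus depends on the scale. Their place relative to all genes is the same under both read scalings by construction, since rescaling moves every gene alike. It is therefore no separate check, and the TPM come from the same reads. Beside this, the median log2 ratio of scaled reads was 0.05 for cardiomyocyte, -0.20 for endothelial, -0.11 for fibroblast, -0.31 for mural and -0.21 for macrophage markers. In whole tissue, fewer cells of a type and less RNA per cell cannot be told apart, and the part of cell make-up in the members' ratios was not tested. The labels give no measure of RNA quality.

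**Figure D4:**
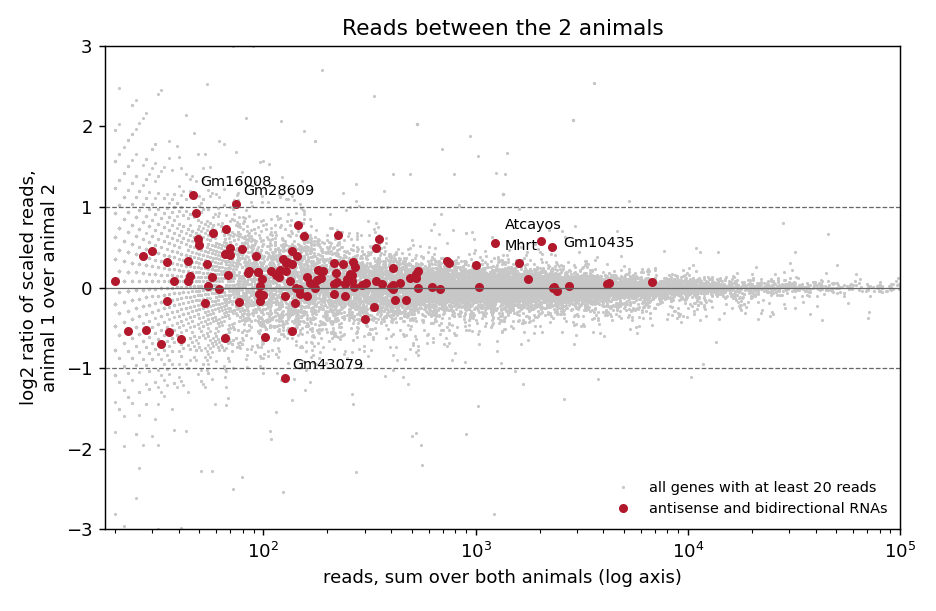
Log2 ratio of scaled reads, animal 1 over animal 2 (vertical), against the sum of reads over both animals (horizontal, log axis), for the 127 members (red) and all genes with at least 20 reads (grey; genes beyond the axis limits are not drawn); dashed lines mark 2-fold. 3 members lie past 2-fold, and among members with over 1000 reads Atcayos, Gm31251 and Gm10435 have the highest ratios, 1.42 to 1.49.

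Single members with many reads carried the clearest ratios. The interval lay above 1 in 15 members, against 9.89% of all genes, and below 1 in 4, against 11.5%. Atcayos had 1195 reads in animal 1 against 847 in animal 2, a ratio of 1.49 (1.36 to 1.63). Gm31251 had 715 and 515 reads, a ratio of 1.46 (1.31 to 1.64), and Mhrt, from the same locus, 866 and 739 reads, a ratio of 1.24 (1.12 to 1.37). Their partner Myh7 had a ratio of 1.02 (1.01 to 1.04). Gm10435 had 1316 and 978 reads, a ratio of 1.42 (1.31 to 1.54). C130080G10Rik had a ratio of 1.05 (0.998 to 1.10), where Actc1 had 0.933 (0.927 to 0.939). Among the 4 members higher in animal 2 were Prox1os, with 39 reads in animal 1 against 63 in animal 2, a ratio of 0.653 (0.426 to 0.989), which starts head to head with the homeobox gene Prox1, and Hectd2os, with 127 and 175 reads, a ratio of 0.765 (0.604 to 0.967). At 1.5-fold or more were 15 of 127 members, against 8.71% of all genes, and of 54 members with at least 200 reads 52 differed by less, as did 98.5% of 11327 genes with as many reads. In 117 pairs both genes had 20 reads, and member and partner lay on the same side of 1 in 59 of them, with 86 members and 56 partners above 1. No partner in these pairs reached 2-fold, where 2.73% of all genes and 1.14% of those at 1 TPM or more passed.

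A second quantification of the same libraries, deposited per transcript in the layout of kallisto, ranked the members alike (Spearman's rank correlation 0.93 across 127 genes, a description) and put 111 of them higher. The median log2 difference, first over second, was -0.32 for members and -0.25 for genes at 1 TPM or more. Of the 127 members 120 also reached 1 TPM in the second quantification, 7 did not, and 10 differed more than 2-fold. Ndufb1-ps had 124 and 140 TPM in the first and 307 and 312 TPM in the second, a log2 difference of -1.23. Tmem147os had 1.38 and 1.67 TPM in the first and 3.77 and 3.88 TPM in the second, a difference of -1.27. Gm26782 differed by -1.06 and Gm13594 by -1.01. In the other direction Gm15543 had 118 and 143 TPM in the first and 51.5 and 40.6 TPM in the second, a difference of 1.51. 2900060B14Rik, at 0.80 and 1.48 TPM in the first, was listed at 0 in the second, and Gm11973 had 1.56 and 1.79 TPM in the first and 0.186 and 0 TPM in the second. Rab26os differed by 1.57 and Gm20457 by 1.51. The median difference was -0.35 for the 68 members with exon overlap and -0.31 for the other 59. A further 44 genes of the classes were below 1 TPM in the first quantification and at 1 TPM or more in the second.

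**Figure D5:**
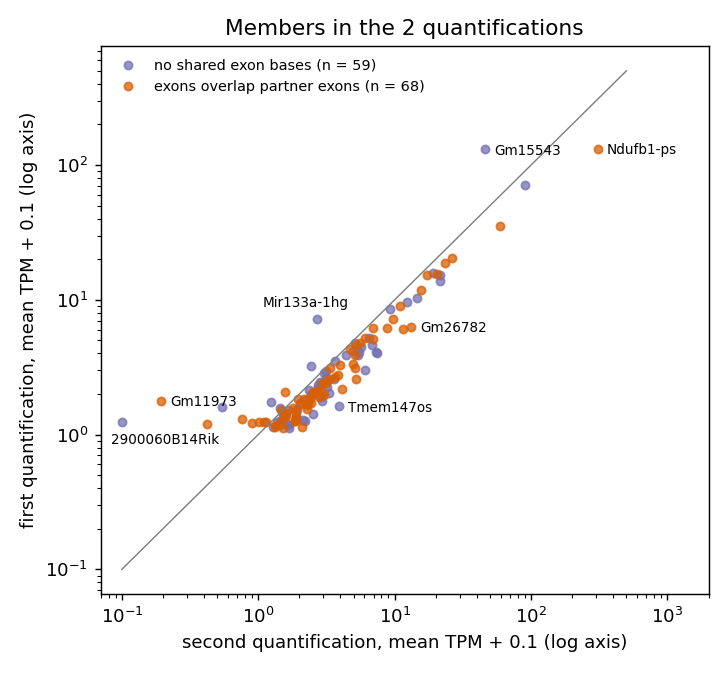
Mean TPM of each member in the first (vertical) and the second quantification (horizontal), both with 0.1 added and on log axes; colours separate the 68 members with exons opposite partner exons from the other 59, and the line marks equal levels. 111 members lie below the line, and Gm15543, Mir133a-1hg, Gm11973 and 2900060B14Rik lie above it.

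Of 32 names put on a list of heart or developmental antisense RNAs, 26 were in the annotation, 2 were members, Mhrt and Sp3os, and 9 had no read. Being listed shows no role of an RNA in heart or development. Carmn, Hotair and Ptgs2os2 on the list are typed lincRNA. Hand2os1, a regulator of the heart transcription factor gene Hand2 in mouse, stood at 61.3 TPM in animal 1 and 63.4 TPM in animal 2, but is no member because its transcripts include a retained-intron type. Zfas1, the host of small nucleolar RNAs, was at 7.06 and 7.54 TPM and is outside for the same reason. Of 9 listed RNAs with 20 reads 1 passed 2-fold, Hoxb3os, with 19 reads in animal 1 and 5 in animal 2, where 2.73% of all genes passed. Genes listed for the nuclear RNA exosome and its adaptors, which remove most divergent transcripts, were mostly present. Of 25 listed names 22 were annotated and 21 reached 1 TPM, and the median over the 22 was 7.14 TPM. Exosc6 had no read in either animal. The list also holds Xrn2, Pcf11 and Ints11, so its counts are not of exosome genes and adaptors alone. None of the 21 passed 2-fold between the animals, where 1.14% of genes at 1 TPM or more passed. The highest were Srrt, which links the cap of nascent RNA to its decay, at 24.1 TPM in animal 1 and 29.2 TPM in animal 2, the poly(A)-binding protein gene Pabpn1 at 20.2 and 22.6 TPM, the nuclear exosome nuclease gene Exosc10 at 14.5 and 17.4 TPM, and the exosome core gene Exosc7 at 10.7 and 11.8 TPM.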

How the data were processed

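The authors deposited for each library a gene table and 2 transcript tables. Per the file headers, the gene table holds expected counts (estimated reads per gene, not normalised), TPM over all entries and a posterior standard deviation of the count, a score of read assignment called its spread here, in the layout of RSEM, and the first transcript table adds the percent of its gene that each transcript takes. The second transcript table, laid out as kallisto writes it, holds the authors' estimated counts per transcript and their TPM, per the file headers. The deposited readme names mm10 and GENCODE M21. The aligner, versions, filters and use of strand in counting were not given in the sources used here.

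The members and lists were chosen with earlier results of these data known. A partner was the opposite-strand protein-coding gene starting within 1000 bases of the member's start, otherwise the one with most exon bases opposite, otherwise the one whose gene body overlaps most. Expected counts were rounded to whole numbers, genes with at least 20 reads kept, and library sizes scaled by TMM in edgeR 4.0.16 (R 4.3.3), with DESeq2 1.42.0 size factors as an alternative. Ratios carry exact 95% binomial intervals and no p-value. Reads have no molecular identifiers, so intervals and the 3-read limit cover counting error only. Log2 ratios of reads used a prior count of 0.5 and those of TPM 0.1. The ratio and interval step was tested on simulated data. Entries without a gene identifier (26248, with 4 reads in animal 1 and 2 in animal 2) were left out. Genes named were the 20 highest members, listed RNAs, members past 2-fold, the 6 highest and 4 lowest over their partner, the 4 largest differences between quantifications in each direction, 3 genes on each side of the threshold and the 4 highest exosome genes. Values of some partners that this rule names are not reported here. Gm11175, A630072M18Rik, Brip1os, Prox1os, Hectd2os, the members without a partner, those with small RNA genes inside and those whose sequence is printed were chosen after their values were seen. Promoter windows and motifs came from RefSeq on GRCm38.p6. The starts that set the arrangement, and lengths, exons and polyadenylation signals, came from GENCODE M21.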

Additional observations from a re-analysis of the deposited data

How the results depend on the processing

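The number of members was 210 at 0.5 TPM and 63 at 2 TPM in place of 127 at 1 TPM, and between 120 and 133 from 1 animal alone. Their summed level was 1056 TPM in the second quantification, 689 CPM (reads in 1000000 gene reads) when length was left out and 532 TPM without Ndufb1-ps and Gm15543, an alternative chosen after seeing the data, as was that of the highest opposite-strand gene. The median level was 2.03 to 2.07 TPM from 1 animal alone and 2.70 TPM in the second quantification. The median log2 level over the partner was -2.47 in the second quantification, -2.09 with 1 TPM added in place of 0.1 and -1.87 for overlapping partners alone. Members past 2-fold between animals numbered 1 with at least 100 reads and 15 at 1.5-fold, where 8.71% of all genes passed. Of the other alternatives 32 kept the direction and lay within 1.5 times the count or within the spread reported. No paired analysis was possible because there is 1 group. The median member had 148 reads over both animals, so counting error alone leaves wide intervals for most ratios, and 2 animals give no more than a range for any level.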
